A study of Mus musculus with 10 samples.

Results

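Clathrin-coated vesicle machinery comprises the proteins that build a coated pit at the plasma membrane and release it as a vesicle. The 10 genes described here were chosen by name: the clathrin heavy chain *Cltc*, the light chains *Clta* and *Cltb*, the AP-2 adaptor subunits *Ap2a1*, *Ap2a2*, *Ap2b1*, *Ap2m1* and *Ap2s1*, the adaptor *Picalm* and dynamin 2, *Dnm2*. All 10 were found among the 27024 genes with a name in the table of the series, and all 10 passed the minimum of a mean of 1 FPKM (fragments per kilobase of exon, scaled to the depth of the sample). The measurements came from bulk RNA-seq of wild-type bEnd.3, an immortalised mouse brain endothelial cell line. One group of 5 samples (replicates 1, 2, 3, 4 and 5) was given an equal volume of saline in growth medium for 16 h. The other group of 5 samples (replicates 1, 2, 3, 5 and 6) was given 5 nM StcE, a bacterial protease that cuts proteins with dense mucin-type O-glycans, for the same 16 h. Both groups shared the cell line, the medium with serum and the incubation at the same temperature. Nothing in the labels says that the samples of a group came from separate cultures, so p-values measure the spread between these samples, which may be technical.

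In clathrin-mediated endocytosis, AP-2 binds the membrane and the tails of cargo receptors and recruits clathrin triskelia, each made of heavy chains with bound light chains, which assemble into a lattice around the forming pit. PICALM binds membrane lipid and clathrin and helps to set the curvature of the coat, and dynamin constricts the neck of the pit until the vesicle is released. Brain endothelial cells take up transferrin and other ligands through such pits, and they also carry caveolae, a separate class of membrane invagination built on caveolin.

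The promoters of the 3 chain genes are shown because the chains form the coat itself and the levels of the light chains varied together across samples. RefSeq promoter sequences were found for all 10 genes, with 11 start sites in all, since *Clta* had 2. The windows are the 250 bases before the start site on build GRCm38.p6, written 5′ to 3′ on the strand of the gene. That of *Cltc* lies at chr11:86757568-86757817 on the minus strand, that of *Clta* at chr4:44004193-44004442 on the plus strand, for the first of its starts, and that of *Cltb* at chr13:54611374-54611623 on the minus strand, and none of the 3 overlapped an annotated exon. Capitals mark the cyclic AMP response element (CRE, TGACGTCA), which was found once in the *Cltb* window.
Cltc: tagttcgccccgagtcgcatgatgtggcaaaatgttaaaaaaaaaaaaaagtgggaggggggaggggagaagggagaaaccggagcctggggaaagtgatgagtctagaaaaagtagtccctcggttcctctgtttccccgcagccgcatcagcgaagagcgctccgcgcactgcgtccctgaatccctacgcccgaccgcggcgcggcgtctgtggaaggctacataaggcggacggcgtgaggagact
Clta: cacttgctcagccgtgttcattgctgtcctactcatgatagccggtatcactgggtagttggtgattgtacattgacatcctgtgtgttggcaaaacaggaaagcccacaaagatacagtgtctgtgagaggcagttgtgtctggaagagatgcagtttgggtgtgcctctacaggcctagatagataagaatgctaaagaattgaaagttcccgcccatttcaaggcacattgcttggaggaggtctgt
Cltb: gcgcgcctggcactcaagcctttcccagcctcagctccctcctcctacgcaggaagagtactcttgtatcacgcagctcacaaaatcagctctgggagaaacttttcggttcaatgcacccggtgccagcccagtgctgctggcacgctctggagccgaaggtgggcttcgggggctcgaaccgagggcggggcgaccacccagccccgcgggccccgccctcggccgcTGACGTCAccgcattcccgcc
The same element stood in the promoter of *Ap2b1*, the gene on which the count of changed members rests, and a stretch of 30 bases around it is shown, at chr11:83302639-83302668 on the plus strand. The RefSeq start of *Ap2b1* lies 3673 bases inside the gene as GENCODE draws it, and 214 of the 250 bases before it fall in annotated exons.
Ap2b1: gcgcacccagaTGACGTCAggcggcgagat
The CRE was present in 2 of the 11 windows of the members and in 1.55% of the 32851 windows in the table. Of the other motifs searched on both strands, CCAAT was present in 4 of the 11 windows and in 33.8% of all windows, GGGCGG (a GC box) in 6 and in 32.7%, and CACGTG (an E box) in 2 and in 6.02%. The sterol regulatory element TCACNCCAC was in 0 of the 11 windows and in 1.05% of all windows. The *Cltc* window held 0 of the 5 motifs. The first *Clta* window contained 3 CG dinucleotides and the second 9, against 22 for *Cltc* and 21 for *Cltb*. The second *Clta* window also held 2 CCAAT boxes, and which start the cells use was not measured. A match is a description of letters and not a measured binding site, and binding was not measured.

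The members had different levels of FPKM, a scale that divides by the merged length of all annotated exons of a gene. Over all 10 samples, the order of mean FPKM ran from *Clta* (145 ± 6.3, SD, n = 10) through *Ap2m1* (105.5 ± 3.69), *Cltc* (72.1 ± 2.43), *Ap2s1* (66.2 ± 3.56), *Ap2a1* (48.9 ± 1.54), *Cltb* (38.8 ± 0.526), *Dnm2* (35.2 ± 0.701), *Ap2b1* (32.5 ± 1.75) and *Ap2a2* (28.1 ± 0.693) to *Picalm* (16.1 ± 0.485). The ranges of *Cltc* and *Ap2s1* overlapped, as did those of *Dnm2* and *Ap2b1* and those of *Ap2b1* and *Ap2a2*. All other neighbours in the order had ranges that did not meet. The order depends on the length used. Per length of the longest coding transcript, a scale chosen after seeing the data, *Ap2s1* (116.5 ± 6.27) stood above *Cltc* (93.95 ± 3.17) with ranges apart, and *Cltb* (86.46 ± 1.17) above *Ap2a1* (61.0 ± 1.93), also apart. On that scale *Clta* remained first and its range overlapped that of *Ap2m1*, and *Picalm* remained last. Which transcripts the cells make was not measured. By deposited FPKM, *Clta* stood at percentile 97.2 and *Picalm* at percentile 69.1 of the tested genes. The standard deviation over the 10 samples was 5.38% of the mean for both *Ap2b1* and *Ap2s1* and 1.36% for *Cltb*, the widest and the narrowest spreads among the members.

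The 2 neuronal dynamins and the neuronal counterpart of *Picalm* were low, so *Dnm2* and *Picalm* carried almost all of the measured transcript of their families. *Dnm1* lay between 0 and 0.0626 FPKM and was listed at 0 in 2 samples. *Dnm3* lay between 0.281 and 0.431 FPKM, and *Snap91*, the counterpart of *Picalm*, was above 0 in saline replicate 1 alone, at 0.00721 FPKM. A level of 3 fragments, the floor used here, corresponded to between 0.016 and 0.025 FPKM for *Dnm1* and to between 0.0094 and 0.014 FPKM for *Snap91*. For *Dnm3* it was between 0.0035 and 0.0053 FPKM, so *Dnm3*, with 162 to 285 fragments in a sample, was detected in all samples. Depth was not limiting for the members, which had between 2181 fragments in a sample (the lowest for *Ap2s1*) and 21406 (the highest for *Cltc*). Fragments recovered per sample ranged from 21918326 to 29011314 in the saline group and from 21859342 to 33140289 in the StcE group.

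**Figure D1:**
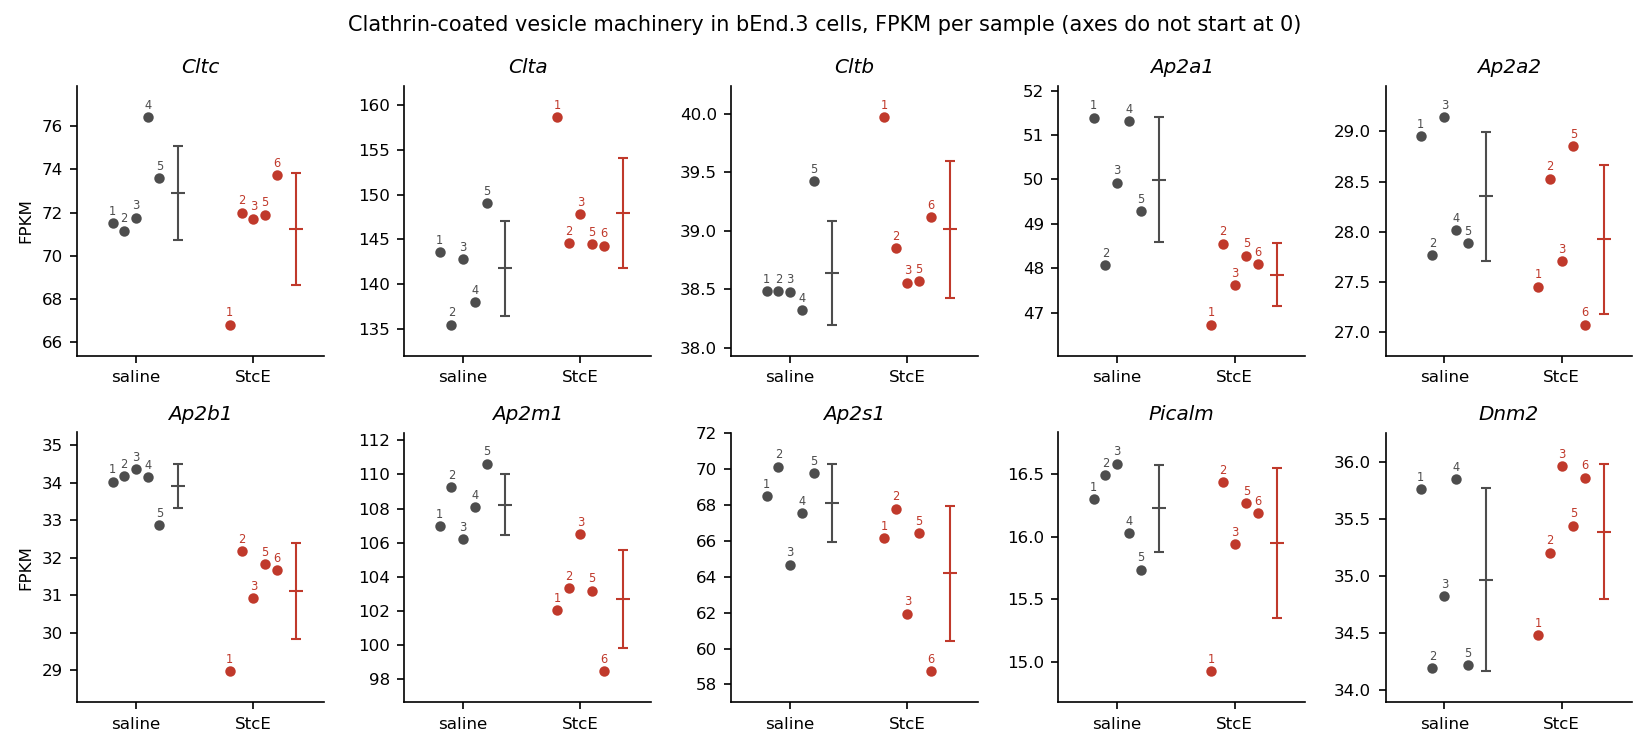
FPKM of the 10 members in each sample. Points are samples numbered by replicate, bars are the mean ± SD of 5 samples, and each vertical axis has its own range that does not start at 0. In the *Ap2b1* panel the 5 StcE samples lie between 28.98 and 32.2 FPKM, all below the lowest saline sample at 32.9, whereas in the other 9 panels the groups overlap.

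After StcE, 1 member of the machinery passed the test, the AP-2 β subunit *Ap2b1*, which fell by 0.12 on the log2 scale, and the other 9 did not. Of the 10 members, 1 was past an adjusted p of 0.05 in limma, 1 lower and 0 higher, and voom on recovered fragments also gave 1 lower and 0 higher. Of all 11062 genes tested, 1320 were past that threshold (11.9%), 709 of them lower (6.41%) and 611 higher (5.52%). The number of members whose groups did not overlap was also 1, against 10.7% of all genes. At an unadjusted p under 0.05, 3 members were lower and 0 higher in limma, against 27.8% of all genes in either direction. The median log2 fold change of the members was -0.028, with 7 of 10 below 0, and that of all tested genes was -0.00066. Taken in either direction, these shares of members are near those of all genes. The share of all genes that were lower at an unadjusted p under 0.05 was not counted. In bulk RNA, fewer cells that express a gene and less transcript per cell cannot be told apart.

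The heavy chain *Cltc* forms the legs of the triskelion. Its FPKM was 71.5, 71.2, 71.8, 76.4 and 73.6 in saline replicates 1 to 5 and 66.8, 72.0, 71.7, 71.9 and 73.7 in StcE replicates 1, 2, 3, 5 and 6. Outside the low value in StcE replicate 1 and the high value in saline replicate 4, the 8 remaining samples lay between 71.2 and 73.7, and the groups overlapped. The means were 72.9 ± 2.19 for saline and 71.2 ± 2.61 for StcE (SD, n = 5 each), a log2 fold change of -0.033 with a 95% confidence interval from -0.099 to 0.033 (limma adjusted p = 0.517, exact permutation p = 0.429). The interval leaves room for a decrease of 0.099 or an increase of 0.033 on this scale.

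*Clta* and *Cltb* encode the light chains, which bind the same region of the heavy chain. The FPKM of *Clta* was 143.6, 135.5, 142.8, 138.0 and 149.0 in the saline samples and 158.6, 144.6, 147.8, 144.5 and 144.3 in the StcE samples. All 5 StcE samples were above the saline mean of 141.8, but saline replicate 5 was above 4 of them. The log2 fold change was 0.061 (95% confidence interval -0.012 to 0.13; limma adjusted p = 0.263; exact permutation p = 0.119). *Cltb* was the steadiest member, at 38.5, 38.5, 38.5, 38.3 and 39.4 FPKM after saline and 40.0, 38.8, 38.6, 38.6 and 39.1 after StcE. Its log2 fold change was 0.013 (95% confidence interval -0.029 to 0.056; limma adjusted p = 0.700), and the highest sample of each group, saline replicate 5 and StcE replicate 1, was also the highest of its group for *Clta*. *Clta* made up between 77.9% and 79.9% of the summed FPKM of the light chains in any sample, and between 62.5% and 65.2% per length of the longest coding transcript, since *Cltb* has 4868 merged exon bases and a transcript of 2186.

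The AP-2 adaptor is a complex of an α subunit (*Ap2a1* or *Ap2a2*), β2 (*Ap2b1*), μ2 (*Ap2m1*) and σ2 (*Ap2s1*). All 5 log2 fold changes were below 0, from -0.12 to -0.021, also under each scaling tried, and 1 of the 5 passed the test. *Ap2b1* encodes the subunit whose appendage and hinge bind clathrin. Its FPKM was 34.0, 34.2, 34.4, 34.1 and 32.9 after saline and 28.98, 32.2, 30.9, 31.8 and 31.7 after StcE. Every StcE sample was below every saline sample, although the gap between saline replicate 5 and StcE replicate 2 was small beside the spread of the StcE group. The means were 33.9 ± 0.594 and 31.1 ± 1.28 (SD, n = 5 each), a change of -8.25% in the mean and a log2 fold change of -0.12 with a standard error of 0.029 (95% confidence interval -0.19 to -0.057; limma adjusted p = 0.0215; exact permutation p = 0.00794, the smallest that 5 against 5 samples allow). The call was narrow: adjusted p was 0.0502 without saline replicate 1, 0.0509 without saline replicate 3 and 0.0527 without StcE replicate 3, with log2 fold changes of -0.12 in each case, over a range of adjusted p from 0.0084 to 0.138 across all alternatives.

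*Ap2m1* encodes the subunit that recognises tyrosine-based sorting signals. Its FPKM was 107.0, 109.3, 106.2, 108.1 and 110.6 after saline and 102.0, 103.3, 106.5, 103.2 and 98.5 after StcE. StcE replicate 3 was above 1 saline sample, and the 4 other StcE samples were below all of them. The log2 fold change was -0.075 (95% confidence interval -0.13 to -0.024; limma adjusted p = 0.0604; exact permutation p = 0.0159), just outside the threshold. It was past it without StcE replicate 3 (adjusted p = 0.0490) and once the trend of each sample over exon length was removed (adjusted p = 0.0447), over a range from 0.0447 to 0.295 across its alternatives.

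The level of *Ap2m1* is uncertain because of a near-identical copy. *Gm13509*, a processed pseudogene at chr2:49308155-49309462 on the plus strand, matched 44.5% of the longest coding transcript of *Ap2m1* at 95% identity or more. It is named here after its values were seen. *Gm13509* was listed at 49.8, 55.5, 58.5, 48.2 and 55.3 FPKM after saline and 62.9, 62.5, 47.0, 49.4 and 62.3 after StcE (log2 fold change 0.079; limma adjusted p = 0.611; exact permutation p = 0.444). Across the 10 samples its level had a correlation of -0.508 with that of *Ap2m1* on log2(FPKM + 1), given as a description. With the fragments of both summed over the exon length of *Ap2m1*, the FPKM was 122.8, 126.9, 124.8, 123.4 and 128.2 after saline and 122.0, 123.2, 121.4, 118.9 and 118.3 after StcE. The summed log2 fold change was -0.052 (limma adjusted p = 0.131; exact permutation p = 0.0159), and the groups overlapped. How reads that match both genes had been assigned was not tested.

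*Ap2a1* and *Ap2a2* encode alternative α subunits, which bind membrane lipid and accessory proteins. The FPKM of *Ap2a1* was 51.4, 48.1, 49.9, 51.3 and 49.3 after saline and 46.7, 48.6, 47.6, 48.3 and 48.1 after StcE. All 5 StcE samples were below the saline mean, with saline replicate 2 inside the range of the StcE group. The log2 fold change was -0.062 (95% confidence interval -0.11 to -0.0100; limma adjusted p = 0.115; exact permutation p = 0.0317). *Ap2a2* lay between 27.8 and 29.1 FPKM after saline and between 27.1 and 28.9 after StcE, with a log2 fold change of -0.021 (95% confidence interval -0.076 to 0.033; limma adjusted p = 0.623). Exons of *Fuz* on the opposite strand cover 16.7% of the exon bases of *Ap2a1*. *Fuz* was at most 1.07 FPKM, and the strand setting used in counting is not given in the sources used here.

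*Ap2s1* encodes the smallest subunit, which with the α subunit binds dileucine sorting signals. Its FPKM was 68.5, 70.1, 64.7, 67.6 and 69.8 after saline and 66.2, 67.8, 61.9, 66.4 and 58.7 after StcE. All 5 StcE samples were below the saline mean of 68.1, and StcE replicates 3 and 6 were below all saline samples. The log2 fold change was -0.086, with the widest interval of the members (-0.17 to 0.00074; limma adjusted p = 0.184; exact permutation p = 0.0794). Without StcE replicate 6 it was -0.054 (limma adjusted p = 0.313, over a range from 0.0850 to 0.370 across its alternatives).

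*Picalm* and *Dnm2* act at opposite ends of the life of a pit. *Picalm* was at 16.3, 16.5, 16.6, 16.0 and 15.7 FPKM after saline and 14.9, 16.4, 15.9, 16.3 and 16.2 after StcE, so that StcE replicate 1 alone was outside the saline range. Its log2 fold change was -0.024 (95% confidence interval -0.087 to 0.039; limma adjusted p = 0.637). *Dnm2* was at 35.8, 34.2, 34.8, 35.8 and 34.2 FPKM after saline and 34.5, 35.2, 36.0, 35.4 and 35.9 after StcE. StcE replicates 3 and 6 were above all saline samples by a small margin and the groups overlapped, and the log2 fold change was 0.017 (95% confidence interval -0.032 to 0.066; limma adjusted p = 0.672).

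**Figure D2:**
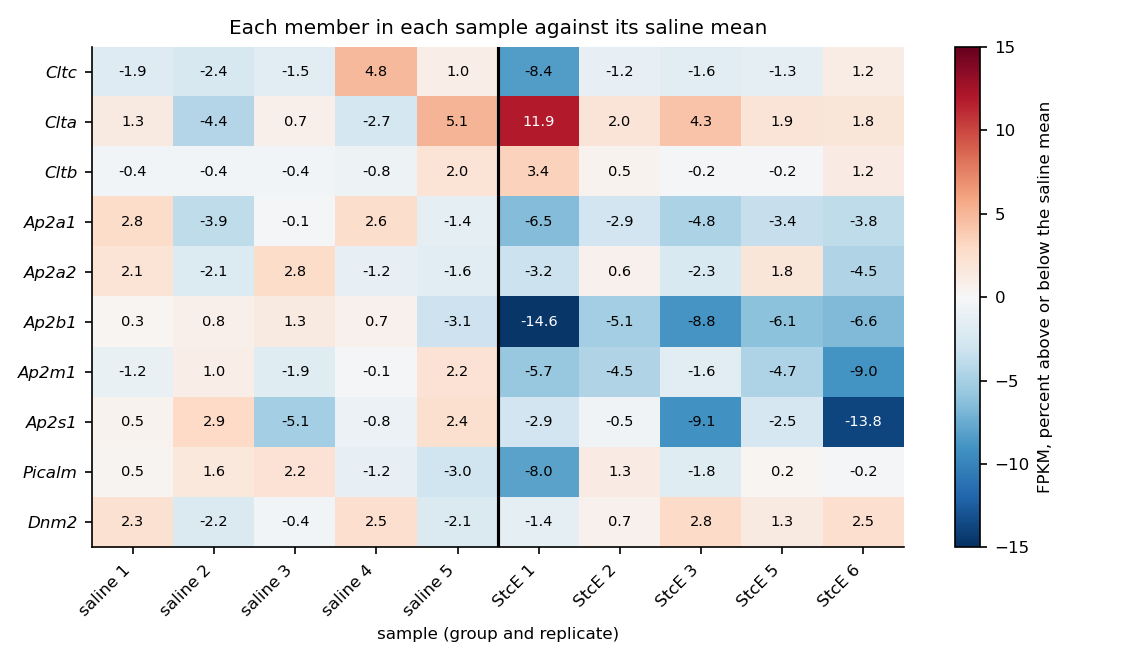
FPKM of each member in each sample as a percentage above or below the mean of the 5 saline samples. Red is above and blue below that mean. In StcE replicate 1, *Ap2b1*, *Cltc* and *Picalm* are at -14.6%, -8.36% and -8.02% and *Clta* is at 11.9%.

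StcE replicates 1 and 6 differed most from each other. Replicate 1 held the lowest value of the StcE group for 5 of the 10 members and the highest for 2, and replicate 6 held the lowest for 4 and the highest for 1. Genes of different exon length deviated in opposite directions in both samples. In replicate 1, the 2199 tested genes with under 2000 exon bases had a median deviation of 0.047 from the group mean on log2(FPKM + 1), and the 3248 genes with 6000 bases or more had one of -0.039. In replicate 6 these medians were -0.032 and 0.024. *Clta*, with 1800 exon bases, was high in replicate 1, and *Cltc* with 8499, *Ap2b1* with 8755 and *Picalm* with 15732 were low. With the trend of each sample over exon length removed, the log2 fold change of *Ap2b1* was -0.11 (limma adjusted p = 0.0109) and that of *Cltc* was -0.018 (limma adjusted p = 0.656). Without StcE replicate 1, the log2 fold change of *Ap2b1* was -0.097 (limma adjusted p = 0.0251), that of *Cltc* was -0.010, that of *Clta* was 0.036 and that of *Picalm* was -0.0015.

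Ratios within a sample do not depend on the scaling between samples, and 3 were compared by exact two-sided permutation tests with adjustment over the 3. The ratio of *Cltc* to *Cav1*, the coat genes of the clathrin and caveolar routes, was higher after StcE. On the log2 scale it was -3.19, -3.24, -3.16, -3.07 and -3.15 after saline and -2.99, -2.95, -2.89, -2.93 and -2.87 after StcE. The groups did not overlap, and the difference of 0.24 had an exact permutation p of 0.00794, the smallest possible, and an adjusted p of 0.0238. *Cav1* fell by 0.27 on the log2 scale, and the log2 fold change of *Cltc* was -0.033.

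The light chain and α subunit ratios moved by more than the SD of a group and by less than its range. The log2 ratio of *Clta* to *Cltb* was 1.90, 1.82, 1.89, 1.85 and 1.92 after saline and 1.99, 1.90, 1.94, 1.91 and 1.88 after StcE, a difference of 0.048 (exact permutation p = 0.127, adjusted p = 0.127). That of *Ap2a1* to *Ap2a2* was 0.83, 0.79, 0.78, 0.87 and 0.82 after saline and 0.77, 0.77, 0.78, 0.74 and 0.83 after StcE, a difference of -0.041 (exact permutation p = 0.0952, adjusted p = 0.127). Both pairs of groups overlapped.

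**Figure D3:**
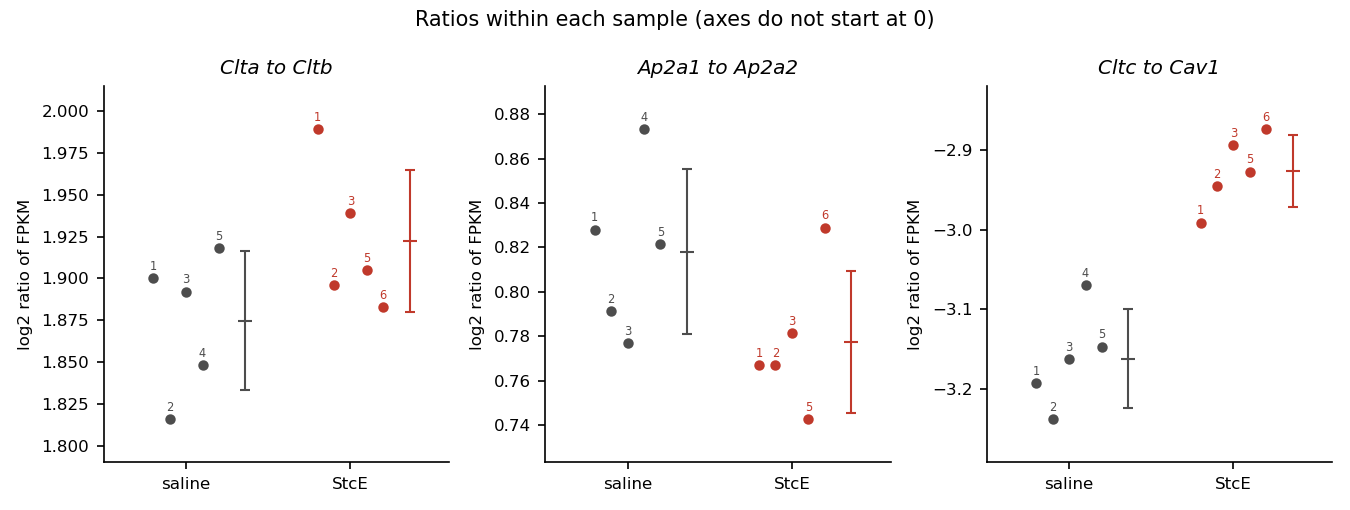
Log2 ratios of FPKM within each sample for 3 pairs of genes. Points are samples numbered by replicate and bars are the mean ± SD of 5 samples. The *Cltc* to *Cav1* ratio lies between -3.24 and -3.07 after saline and between -2.99 and -2.87 after StcE, whereas the groups overlap in the 2 other panels.

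Across the 10 samples, members of the machinery did not vary as 1 block. *Ap2b1* had Pearson correlations on log2(FPKM + 1) of 0.797 with *Ap2a1*, 0.758 with *Picalm* and 0.614 with *Cltc*, and of -0.844 with *Clta* and -0.732 with *Cltb*. The light chains correlated with each other at 0.836, and *Clta* with the heavy chain at -0.636. These values include both the difference between groups and StcE replicates 1 and 6, and are given as a description with n = 10. The 3 tested genes outside the machinery that were most like *Cltc* were *Kdm3b* (r = 0.955), *Strn* (r = 0.954) and *Gtf3c1* (r = 0.947). Each of the 3 has a long transcript, with exon lengths of 14095, 8858 and 12018 bases against a median of 4171 for tested genes, and none was past the threshold.

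Genes of the other steps of the pathway were counted by the same test, by which 11.9% of all tested genes were past the threshold. Of the pit initiation and accessory proteins, 10 of 14 were tested and 1 was called, *Ston1*, which has a domain like that of μ2 (23.3 ± 0.445 FPKM after saline and 21.5 ± 0.969 after StcE, log2 fold change -0.11, limma adjusted p = 0.0380). *Tnk2*, the most abundant of them, had a log2 fold change of 0.035 (limma adjusted p = 0.569). Of the membrane bending and cargo adaptors, 10 of 12 were tested and 1 was called, *Hip1*, which links clathrin to actin (16.0 ± 0.761 and 14.1 ± 0.814 FPKM, log2 fold change -0.17, limma adjusted p = 0.0256). At an unadjusted p under 0.05, 6 of the 10 were lower and 0 higher, against 27.8% of all genes in either direction. The share of all genes that were lower at that level was not counted. Voom on recovered fragments called 3 lower. This list had a median log2 fold change of -0.081, with 8 of 10 below 0, and its most abundant gene *Epn1* had 1 of -0.055 (limma adjusted p = 0.0907). In the scission list, 9 of 15 were tested and 2 were higher, both membrane-curving proteins that bind dynamin: *Snx9* (81.4 ± 2.86 and 89.2 ± 2.28 FPKM, log2 fold change 0.13, limma adjusted p = 0.0120) and *Bin1* (16.9 ± 0.694 and 18.5 ± 0.513 FPKM, log2 fold change 0.12, limma adjusted p = 0.0268).

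Of these 4 calls, 3 depended on single samples. With each of the 10 samples left out in turn, *Ston1* was no longer past the threshold in 7 cases (adjusted p from 0.0140 to 0.141 over all its alternatives), *Hip1* in 4 (0.00481 to 0.140) and *Bin1* in 5 (0.0149 to 0.149). *Snx9* was past it in all 10 and was not when the samples were scaled by total FPKM (0.00179 to 0.0694).

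The uncoating factors and kinases and the intracellular clathrin adaptors had no call. In limma, 0 of 11 tested genes of the first list (13 in all) and 0 of 18 tested of the second (19 in all) were past the threshold, with 1 higher in the first and 1 lower in the second at an unadjusted p under 0.05, and voom on recovered fragments called 0 of 11 and 0 of 17. The most abundant genes, *Hspa8* of the uncoating list and *Ap1s1* of the adaptors, had log2 fold changes of 0.015 and -0.0041.

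Receptors that use coated pits were tested as well, and values are given for 5 of the 11 tested. The transferrin receptor *Tfrc* rose from 31.5 ± 1.05 to 37.7 ± 0.801 FPKM (log2 fold change 0.25, limma adjusted p = 0.000171), and *Lrp8* rose from 7.71 ± 0.546 to 9.83 ± 0.504 (0.32, limma adjusted p = 0.00158). *Vldlr* fell from 4.31 ± 0.253 to 3.46 ± 0.287 FPKM (-0.25, limma adjusted p = 0.00786), and the VEGF receptor *Flt1* fell from 18.7 ± 0.636 to 15.9 ± 1.13 (-0.23, limma adjusted p = 0.00775). *Kdr*, the most abundant receptor of the list, had a log2 fold change of -0.11 (limma adjusted p = 0.138). These 4 calls held with each sample left out in turn. The difference between the receptors and the coat genes as lists was not tested.

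Of the caveolar genes, 7 of 8 were in the table, 6 were tested and 4 were lower, against 6.41% of all tested genes. The 2 others tested were also below 0 but were not past the threshold. The median log2 fold change of the 6 was -0.16. *Cav1*, the most abundant, fell from 652 ± 11.9 to 541 ± 9.74 FPKM (-0.27, limma adjusted p = 1.42e-05). *Ehd2* fell by 0.16, *Cavin2* by 0.20 and *Cavin3* by 0.16 on the log2 scale (limma adjusted p = 0.00170, 0.000921 and 0.00626). The summed FPKM of the caveolar genes was between 1628 and 1662 after saline and between 1435 and 1483 after StcE, whereas that of the clathrin machinery was between 585 and 602 after saline and between 573 and 587 after StcE.

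**Figure D4:**
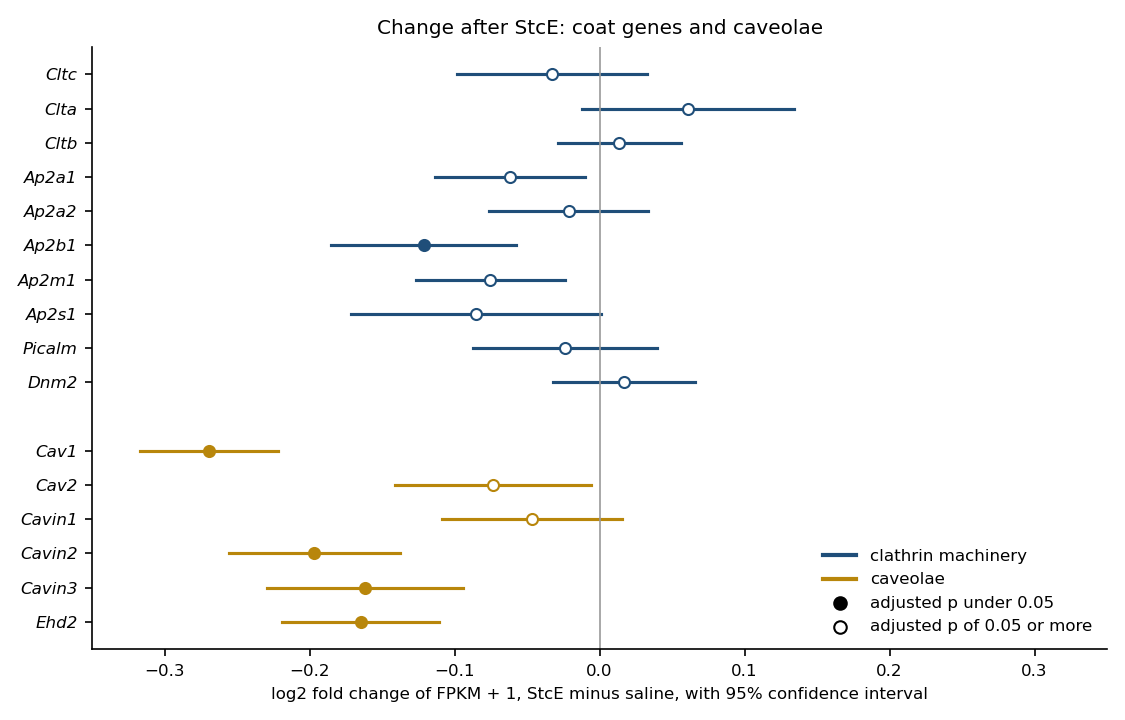
Log2 fold change of FPKM + 1 (StcE minus saline) with its 95% confidence interval for the tested genes of 2 lists, the clathrin machinery and caveolae. Filled points have a limma adjusted p under 0.05. The 10 members lie between -0.12 and 0.061, with *Ap2b1* filled, and *Cav1* lies at -0.27.

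**Figure D5:**
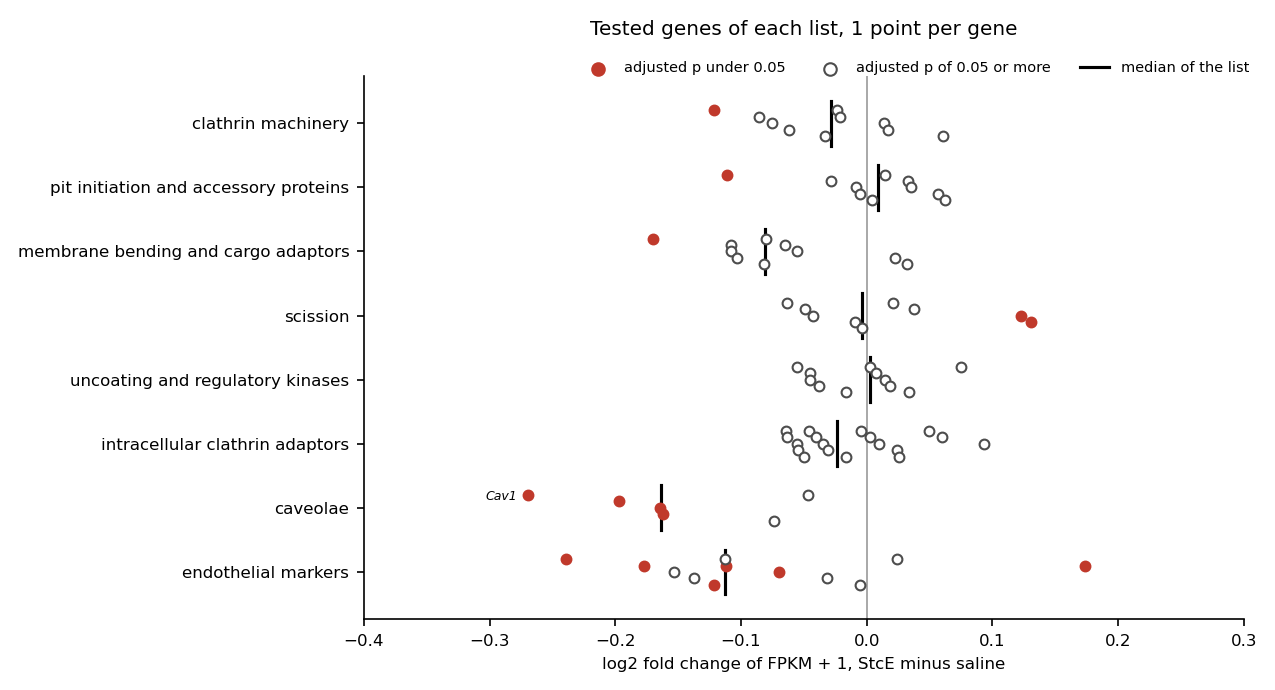
Log2 fold change of FPKM + 1 (StcE minus saline) of every tested gene of 8 lists, with 1 point per gene and a vertical bar at the median of each list. Filled points have a limma adjusted p under 0.05. The median is -0.028 for the clathrin machinery, -0.081 for membrane bending and cargo adaptors and -0.16 for caveolae.

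The cell type was checked against markers. All 12 endothelial markers were tested, with *Cdh5* the most abundant (509 ± 25.9 FPKM after saline and 463 ± 22.3 after StcE, limma adjusted p = 0.0515). Of the 12, 5 were lower (*Pecam1*, *Tek*, *Tie1*, *Erg* and *Esam*, with log2 fold changes of -0.11, -0.24, -0.18, -0.12 and -0.070) and 1 was higher (*Egfl7*, 0.17). Of all tested genes, 6.41% were lower and 5.52% higher. With each sample left out in turn, *Tek* and *Tie1* were past the threshold in all 10 cases, whereas *Pecam1* and *Erg* were not in 8, *Egfl7* in 9 and *Esam* in 10. The summed FPKM of the 12 endothelial markers was between 2051 and 2200 after saline and between 1992 and 2076 after StcE. As sums, markers of other cell types were low beside these. Among the endothelial markers *Vwf*, named here after its values were seen, was itself low. It was at 1.42 ± 0.675 FPKM after saline and 1.14 ± 0.461 after StcE. The summed level of the astrocyte markers was at most 0.0896 FPKM and that of the microglia and leukocyte markers at most 0.109, their most abundant genes being *Gfap* and *Csf1r*. Mural markers summed to at most 5.12 FPKM (*Acta2* the most abundant, log2 fold change 0.066, limma adjusted p = 0.845), fibroblast markers to at most 1.51 (*Pdgfra*, 0.072, limma adjusted p = 0.438) and oligodendrocyte markers to at most 11.3 (*Cnp*, -0.092, limma adjusted p = 0.128). The neuron markers summed to between 1.91 and 2.73 FPKM after saline and between 2.52 and 3.24 after StcE, nearly all of it *Tubb3* (log2 fold change 0.29, limma adjusted p = 0.0227), with *Rbfox3*, *Snap25* and *Syt1* at 0 in every saline sample. *Tubb3* was not past the threshold without saline replicate 1 or without saline replicate 4. The part of these marker levels in the values of the coat genes was not tested.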

How the data were processed

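Total RNA from 10 samples was poly-A selected and made into directional libraries. The authors deposited FPKM per gene, and the submitters' processing notes name HISAT2 2.0.5, featureCounts 1.5.0-p3 and build mm10. A further 22874 lines of the table had no gene name. The annotation release is not given in the sources used here.

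Genes with a mean of at least 1 FPKM over all samples entered a two-sided test in limma (version 3.58.1 under R 4.3.3), run with lmFit and eBayes with trend on log2(FPKM + 1), with condition as the only term and Benjamini-Hochberg adjustment over all 11062 genes. Fold changes are on that scale, which understates the change of low genes. Single values were tested by exact two-sided permutation of the sample labels. The procedure was tested on simulated data. With exon lengths of GENCODE vM21, 96.6% of values above 0 were whole fragments within 0.05, and the 10 members were whole in every sample. Floors derived from recovered fragments describe counting error alone. Promoters were from RefSeq, and copies were searched with BLAST 2.17.0 (95% identity over 150 bases). Differences within groups exceeded counting noise (chi-square per gene between 3.23 and 9.13 over 20 pairs).

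Genes named are the members, genes of the lists past the threshold, the most abundant gene of each list, *Dnm1*, *Dnm3* and *Snap91*, and the 3 genes most correlated with *Cltc*. The members and lists were chosen with earlier results of these data known. Alternatives were a pseudocount of 0.1, a minimum of 0.1 FPKM, no filter, scaling by the median ratio, the upper quartile or total FPKM, eBayes without trend or robust, weights per sample, a block for the replicate number and each sample left out. Chosen after seeing the data were voom on recovered fragments with either of 2 library sizes, removal of each sample's trend over exon length, a fit without block to the 8 samples that the block uses, levels per transcript length, and *Ap2m1* with *Gm13509*.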

Additional observations from a re-analysis of the deposited data

Results flagged for a closer look

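Of 26 groups of 5 samples, 10 members and 3 ratios in both conditions, 3 had a sample whose gap to its nearest neighbour was large against the range of the group. Chance flags about 1 in 20 groups. *Clta* was at 158.6 FPKM in StcE replicate 1, with the 4 other StcE samples between 144.3 and 147.8. *Cltb* was at 39.42 FPKM in saline replicate 5, with the other saline samples between 38.3 and 38.5. *Ap2b1* was at 32.87 FPKM in saline replicate 5, with the other saline samples between 34.0 and 34.4, so the saline sample nearest to the StcE group was itself apart from its own group. The low value of *Cltc* in StcE replicate 1 (66.8 FPKM, the others between 71.7 and 73.7) was just under the limit.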

How the results depend on the processing

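Of 241 values of single members under alternatives, 234 kept their direction and their side of the threshold and 0 reversed. *Ap2b1* was no longer past the threshold in 5 and *Ap2m1* moved past it in 2. For 20 other genes of the lists, 377 of 478 values kept both, 101 were no longer past the threshold and 0 reversed, and 5 of the 20 kept their call under every alternative.

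Genes past the threshold numbered 1320 and came to 801 with no filter, where 27024 genes were tested, and to 790 with scaling by total FPKM, which also moved the split from 709 lower and 611 higher to 518 lower and 272 higher. Leaving out 1 sample gave 793 to 1255 genes, the fewest without StcE replicate 3 (793) and saline replicate 1 (838). The number of members past the threshold, 1, ranged from 0 to 1 when 1 sample was left out. It was 0 without saline replicate 1 and without saline replicate 3. Without StcE replicate 3 it was 1, but the member was *Ap2m1* and not *Ap2b1*. It was 0 in the 8 samples without the block and 2 (*Ap2b1* and *Ap2m1*) with the exon length trend removed. The cause was not tested.

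Replicate numbers 1, 2, 3 and 5 were shared by both groups, and no label says what a shared number marks. Deviations of same-numbered samples had correlations of -0.0966, -0.0225, -0.0265 and 0.0538, and 0 of 4 StcE samples correlated best with its own number. These correlations include each sample's trend over exon length, so they cannot decide whether same-numbered samples shared a batch. With the replicate block, 349 genes and 0 members were past the threshold in 8 samples, against 885 and 0 in the same samples without it. The paired difference in the *Cltc* to *Cav1* log2 ratio was 0.25, with an exact sign-flip p of 0.125, the smallest that 4 pairs allow. With each sample left out in turn, this ratio was past the threshold in all 10 cases.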
